A study of Mus musculus with 13 samples.

Results

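The ligands and receptors of the TNF superfamily that carry a Tnfsf or Tnfrsf symbol were examined in liver cells of mice fed DDC, a xenobiotic that injures small bile ducts. Members were chosen by symbol alone, as every listed gene named Tnfsf or Tnfrsf followed by a number and optional letters. This gave 31 of 55353 listed genes, 11 ligands and 20 receptors. Members that carry other names (Tnf, Lta, Ltb, Fasl, Cd40, Fas and others) were not part of the set and are given at the end as a list of their own.

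Ligands of this family are mostly membrane proteins of immune cells that act as trimers and can be shed, and their receptors sit on immune, endothelial, epithelial and stromal cells. Some receptors carry a death domain and can start apoptosis, others recruit TRAF adaptors and activate NF-κB, and a few bind ligand without signalling and act as decoys. In the liver the family is known for death of injured parenchymal cells, costimulation of T cells, survival of B cells, and growth of bile duct epithelium.

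All libraries came from C57BL/6J mice, described as males between 6 and 12 weeks of age, and the labels give no genetic change for any group used here. Control animals (D0) received no DDC, and the others received chow with 0.1% DDC for 3, 5, 9, 19 or 25 days. Each of these 6 time points has 1 library of protocol A and 1 of protocol B. Protocol A mixed equal shares of sorted viable cells, retinoid-autofluorescent cells, Epcam+ and Pdpn+ cells, Cd45+ leukocytes, Lyve-1+ endothelium and Cd31+ endothelium without Lyve-1, whereas protocol B mixed cells of a stellate cell preparation with Cd45+ Itgax+ Cd64-, Epcam+ and Cd3e+ Lyve-1- fractions, and the protocols used different index kits. Another library, STOP, was made with protocol B from mice that ate DDC for 18 or 19 days and then recovered for 7 days. One label of the D19 protocol B library reads day 18. The number of mice behind a library was not given, so that SDs and p-values describe the spread between libraries, which need not be separate animals. Days 3 and 5 were taken as onset (n = 4 libraries) and days 9, 19 and 25 as progression (n = 6), against steady state (D0, n = 2).

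The libraries held 29307190 to 108602421 unique molecular identifiers (UMIs), and 95563 barcodes had at least 1500 UMIs and were kept as cells. Of these, 79732 (83.4%) were in clusters that could be named from marker genes. Names are given as X-like, and a level is the number of UMIs of a gene per 1000000 UMIs of that cell type in that library (CPM). Any pair of libraries shared between 1 and 49 cell barcodes, at most 0.519% of the smaller library. Among named cells, 17611 (22.1%) held at least 3 UMIs of defining markers of another lineage, and the comparisons were repeated without them. The leading type then changed for 5 members: from neutrophil-like to monocyte-like for Tnfrsf1b (225 and 230 CPM), from lymphatic endothelial-like to Kupffer-like for Tnfrsf11a (73.7 and 77.5), from naive T-like to pDC-like for Tnfrsf14 (23.1 and 24.9), and away from stellate-like cells for Tnfrsf11b and Tnfrsf21, because only 2 libraries then held enough stellate-like cells to be ranked. Lymphocytes of D0 protocol B (D0 B) stood apart. They formed clusters of their own, with 98.0% of the cells of a naive T cluster, 98.3% of an ILC1 cluster and 99.0% of a generic T cell cluster coming from this library, so that in these types the D0 state and the library cannot be told apart. The generic T cell cluster was left out of comparisons. Marker genes of BECs, cDC1s, cDC2s, macrophages and naive T cells were detected in the clusters that carry their names. A name required 3 detected markers, so that this is no separate check of the names. A cluster led by Il1rl1, Areg, Itgb8 and Foxp3 held 5 detected markers of regulatory T cells and 5 of ILC2s. It is called here by its genes, Foxp3 and Il1rl1.

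Types are ranked by their mean over at least 3 atlas libraries with 20 or more cells. Of the 31 members, 29 had at least 100 UMIs over all named cells. Tnfsf12 (TWEAK), the ligand of Tnfrsf12a, had 43 UMIs and Tnfsf13 (APRIL), a ligand of B and plasma cell receptors, had 2. Their gene models lie 0.465 kb apart on chromosome 11 and overlap a read-through model, Tnfsfm13, with 795 UMIs, and an antisense model, Tnfsf13os, with 149. Reads of these genes could be split between the models, and their low levels are therefore uncertain. Tnfrsf26, Tnfrsf22 and Tnfrsf23 are related neighbours on chromosome 7, with gaps of 6.08 and 16.1 kb, and whether reads were split between them was not tested.

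**Figure D1:**
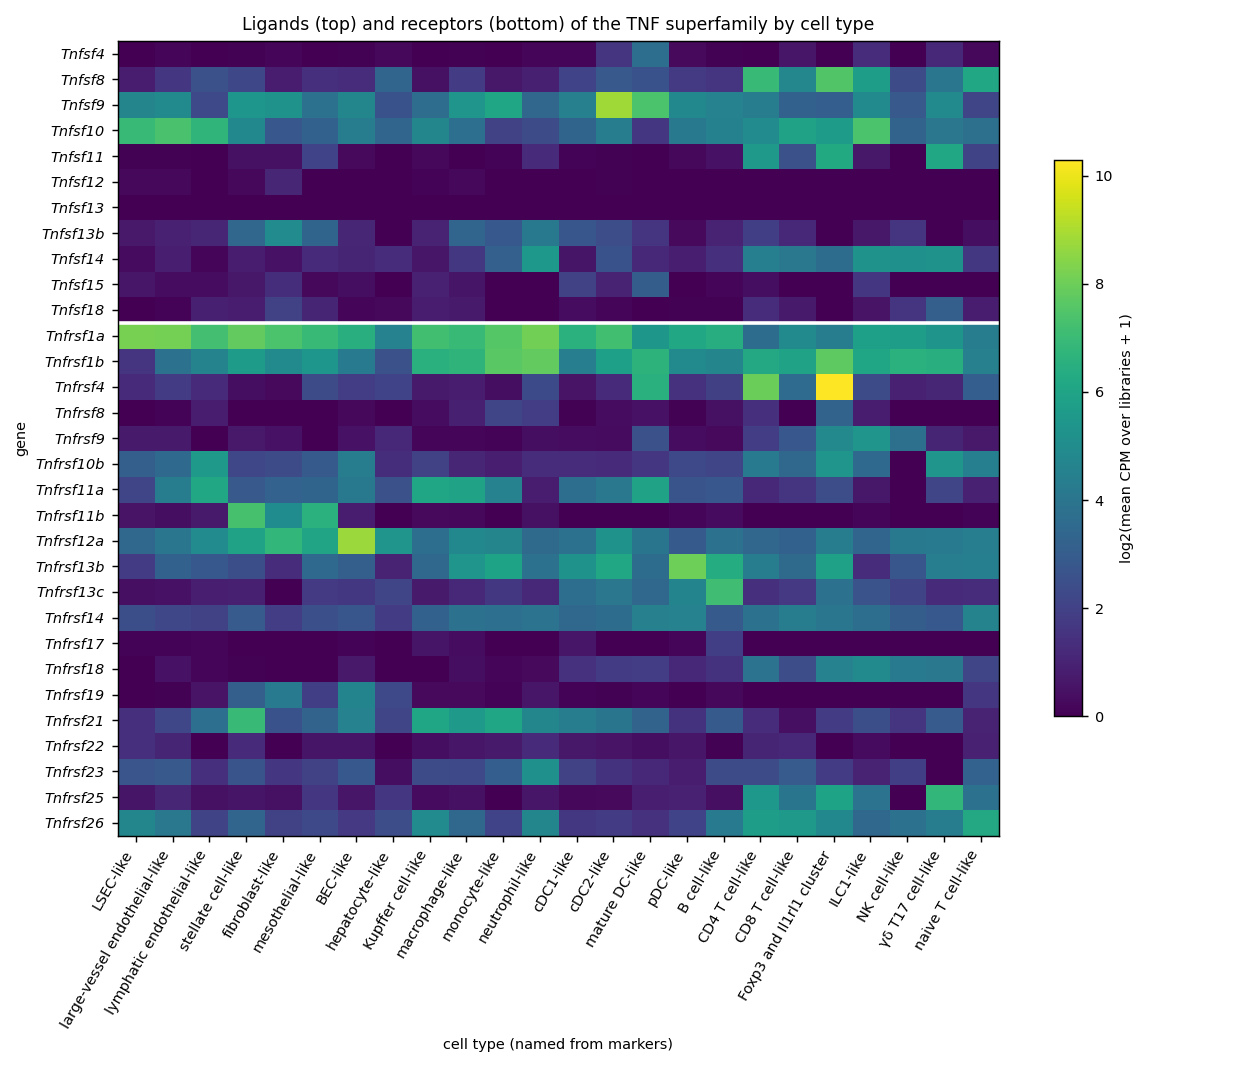
Mean level of each member over atlas libraries with at least 20 cells of a type, as log2(mean CPM + 1), for types with at least 3 such libraries. Columns are cell types named from markers, rows are ligands above the white line and receptors below it; the bright squares for Tnfrsf4 in the Foxp3 and Il1rl1 cluster, Tnfsf9 in cDC2-like cells and Tnfrsf12a in BEC-like cells correspond to means of 1250, 449 and 430 CPM.

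Among ligands, Tnfsf9 (4-1BBL), a costimulator of T cells, was led by cDC2-like and mature DC-like cells, while cDC1-like cells had a mean of 21.4 CPM, below monocyte-like cells with 65.6. In cDC2-like cells its level was 449 ± 278 CPM (SD, n = 12 libraries), with a lowest value of 115 in D0 A, where 21 cells were available, a median of 407 and a highest value of 1010 in D19 B. Mature DC-like cells had 165 ± 97.6 CPM (SD, n = 9), and cDC2-like cells were above them in 9 of 9 libraries that held both. After each cell was thinned to 1500 UMIs, 30.4% of cDC2-like cells had a Tnfsf9 UMI (55.1% without thinning), against 0.652% of naive T-like cells (1.47% without thinning). Median depths were 4808.0 to 15786.0 UMIs in cDC2-like and 2101.5 to 7080.0 in naive T-like cells. Barcodes with at most 100 UMIs held Tnfsf9 at 9.05 to 226 CPM, with a median of 46.2, a range that includes the mean of mature DC-like cells and the lowest cDC2-like libraries. Protocol B was above protocol A at each of the 6 time points, and D0 A (115) and D0 B (804) nearly spanned the whole range.

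Tnfsf10 (TRAIL), which can induce apoptosis through Tnfrsf10b, was highest in ILC1-like and endothelial cells. ILC1-like cells had 166 ± 54.8 CPM (SD, n = 7), large-vessel endothelial-like cells 160 ± 58.3 (n = 10) and LSEC-like cells 121 ± 43.8 (n = 12). The first and second did not differ beyond their SDs, but ILC1-like cells were higher in 5 of 5 shared libraries, and large-vessel endothelial-like cells were above LSEC-like cells in 10 of 10. NK-like cells had a mean of 8.78. Tnfsf11 (RANKL), known from osteoclasts and lymphoid organs, had its highest means in T-lineage clusters, the Foxp3 and Il1rl1 cluster with 76.0 ± 75.4 CPM (SD, n = 4), γδ T17-like cells with 71.1 ± 52.3 (n = 5) and CD4 T-like cells with 46.7 ± 21.5 (n = 6). The order of these 3 did not hold across libraries, as γδ T17-like cells were above CD4 T-like cells in 3 of 5. Tnfsf8 (CD30L) was at 181 ± 125 CPM in the Foxp3 and Il1rl1 cluster (SD, n = 4) and 123 ± 61.6 in CD4 T-like cells (n = 6), which exceeded naive T-like cells (68.1 ± 28.2, n = 7) in 6 of 6 libraries, whereas γδ T17-like cells had 15.4 ± 10.7 (n = 5).

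The remaining ligands were lower. Tnfsf14 (LIGHT), a ligand of Tnfrsf14 and of the lymphotoxin β receptor, reached 43.5 ± 26.4 CPM in neutrophil-like cells (SD, n = 11), and ILC1-like, γδ T17-like and NK-like cells followed with means between 35.3 and 38.3. Tnfsf13b (BAFF), the survival factor of B cells, was highest in fibroblast-like cells with 30.4 ± 10.1 CPM (SD, n = 5), above neutrophil-like cells (17.1 ± 9.82, n = 11) in 5 of 5 libraries. Tnfsf4 (OX40L) and Tnfsf15 (TL1A) were led by mature DC-like cells with 12.2 ± 9.88 and 7.11 ± 9.17 CPM (SD, n = 9), and Tnfsf18 (GITRL) by γδ T17-like cells with 7.78 ± 7.18 (n = 5), which rests on 11 UMIs in 278 cells. The Tnfsf15 mean was raised by D3 A with 30.2 CPM, and the next of 9 libraries had 9.54. With SDs close to the means, the lower positions of these 3 genes could not be ordered.

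Receptors showed both broad and narrow patterns. Tnfrsf1a, the main receptor of TNF, was broad, with 285 ± 42.8 CPM in LSEC-like (SD, n = 12), 282 ± 40.9 in large-vessel endothelial-like (n = 10) and 273 ± 85.4 in neutrophil-like cells (n = 11), and these neighbours exchanged places between libraries. Tnfrsf1b, the second TNF receptor, had its highest means in leukocytes, with 224 ± 98.4 CPM in neutrophil-like cells (SD, n = 11), 211 ± 33.6 in the Foxp3 and Il1rl1 cluster (n = 4) and 201 ± 64.3 in monocyte-like cells (n = 8), the latter above macrophage-like cells in 8 of 8 libraries. Stellate-like (48.9) and mesothelial-like cells (41.7) were above B cell-like (24.7), naive T-like (21.5) and cDC1-like cells (20.3). Barcodes with at most 100 UMIs held Tnfrsf1b at 24.2 to 66.2 CPM, and these lower means were all within or below that range.

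Tnfrsf12a (Fn14), the TWEAK receptor that is known to be induced on regenerating epithelium, marked BEC-like cells with 430 ± 95.3 CPM (SD, n = 9). Fibroblast-like cells came next with 112 ± 44.7 (n = 5) and were lower in 5 of 5 shared libraries. At 1500 UMIs per cell, 39.4% of BEC-like cells had a UMI (84.3% without thinning), against 0.745% of pDC-like cells (4.07%), at median depths of 10051.5 to 27309.0 and 3760.0 to 11885.0 UMIs. Barcodes with at most 100 UMIs held Tnfrsf12a at 12.5 to 128 CPM, with a median of 62.7. All BEC-like libraries were above that range, and the fibroblast-like mean was within it. The single D0 library with enough BEC-like cells had 366 CPM, within the range of 274 to 559 in the 8 DDC libraries.

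Tnfrsf11b (osteoprotegerin), a secreted decoy for Tnfsf11 and Tnfsf10, was a mesenchymal gene. It had 157 ± 99.5 CPM in stellate-like (SD, n = 7), 94.9 ± 73.4 in mesothelial-like (n = 6) and 31.0 ± 18.1 in fibroblast-like cells (n = 5). This order held in 5 of 5 shared libraries at each step, and in all other ranked types the mean was below 1 CPM. Tnfrsf11a (RANK), the signalling receptor of Tnfsf11, was found instead in lymphatic endothelial-like (71.1 ± 28.4 CPM, SD, n = 5), Kupffer-like (66.8 ± 18.7, n = 12), mature DC-like (60.6 ± 31.9, n = 9) and macrophage-like cells (60.3 ± 16.2, n = 12), which did not differ beyond their spread. Tnfrsf21 (DR6) was led by stellate-like cells with 120 ± 49.1 CPM (SD, n = 7), followed by monocyte-like (67.5 ± 21.6, n = 8) and Kupffer-like cells (65.3 ± 16.6, n = 12).

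Receptors of BAFF and APRIL were led by B cells or by plasmacytoid dendritic cells (pDCs). Tnfrsf13c, the BAFF receptor, had 139 ± 48.3 CPM in B cell-like (SD, n = 7) and 24.3 ± 12.2 in pDC-like cells (n = 9), whereas Tnfrsf13b (TACI) had 258 ± 71.8 CPM in pDC-like (n = 9) and 81.9 ± 34.5 in B cell-like cells (n = 7), close to cDC2-like (70.1 ± 20.2, n = 12) and monocyte-like cells (61.4 ± 22.8, n = 8). The order of pDC-like and B cell-like cells held in 5 of 5 shared libraries for each gene. The pDC-like values of Tnfrsf13b were 157 at the lowest, 255 at the median and 381 at the highest. Tnfrsf17 (BCMA), a receptor of plasma cells, reached 2.77 ± 4.78 CPM in B cell-like cells (n = 7) with no UMI in the median library.

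Among costimulatory receptors, Tnfrsf4 (OX40) had 1250 ± 347 CPM in the Foxp3 and Il1rl1 cluster (SD, n = 4), with values of 1080, 880, 1370 and 1670 at D5, D9, D19 and D25 of protocol B. CD4 T-like cells had 249 ± 166 (n = 6), with 226 at D0, 220 at D3, 160 at D5, 176 at D9, 131 at D19 and 581 at D25, all of protocol B. The D25 value stood above the other CD4 T-like libraries, and the Foxp3 and Il1rl1 cluster was above CD4 T-like cells in 4 of 4. Tnfrsf25 (DR3), the receptor of Tnfsf15, was led by γδ T17-like cells with 111 ± 42.4 CPM (SD, n = 5), which exceeded the Foxp3 and Il1rl1 cluster in 4 of 4 libraries. Tnfrsf9 (4-1BB), the receptor of Tnfsf9, reached 40.0 ± 26.2 CPM in ILC1-like cells (n = 7) and 27.7 ± 14.2 in the Foxp3 and Il1rl1 cluster (n = 4), with means of 0.639 to 5.92 in naive T-like, γδ T17-like, CD4 T-like and CD8 T-like cells. Tnfrsf18 (GITR) reached 28.2 ± 28.2 CPM in ILC1-like cells (n = 7), a mean raised by D0 B with 83.3, as the DDC libraries had 7.88 to 49.7. The Foxp3 and Il1rl1 cluster, which had no D0 library with enough cells, followed with 22.4 ± 24.4 (n = 4). It led by the share of cells after thinning, and the order of these types was not settled. Tnfrsf8 (CD30) stayed at 8.64 ± 7.27 CPM in its highest type, the Foxp3 and Il1rl1 cluster (n = 4).

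Tnfrsf10b (DR5), the death receptor for Tnfsf10, had 46.2 ± 23.2 CPM in lymphatic endothelial-like cells (SD, n = 5) and 40.4 ± 12.0 in γδ T17-like cells (n = 5). Tnfrsf14 (HVEM) had means of 19.3 to 23.5 CPM in naive T-like, pDC-like, mature DC-like and CD8 T-like cells, and its lowest means were 2.53 in hepatocyte-like and 2.64 in fibroblast-like cells. Tnfrsf19 (TROY), a receptor known from progenitor cells, had 23.9 ± 29.8 CPM in BEC-like (SD, n = 9) and 17.9 ± 14.3 in fibroblast-like cells (n = 5). The BEC-like mean rested on D0 A and was 14.1 ± 6.07 (n = 8) without it. D0 A was also the highest fibroblast-like library (36.9), and the order of these types was not settled. Of the neighbours on chromosome 7, Tnfrsf23 was led by neutrophil-like cells (34.8 ± 13.3, n = 11), Tnfrsf26 by naive T-like cells (73.7 ± 25.7, n = 7), and Tnfrsf22 did not exceed a mean of 1.69 in any type.

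**Figure D2:**
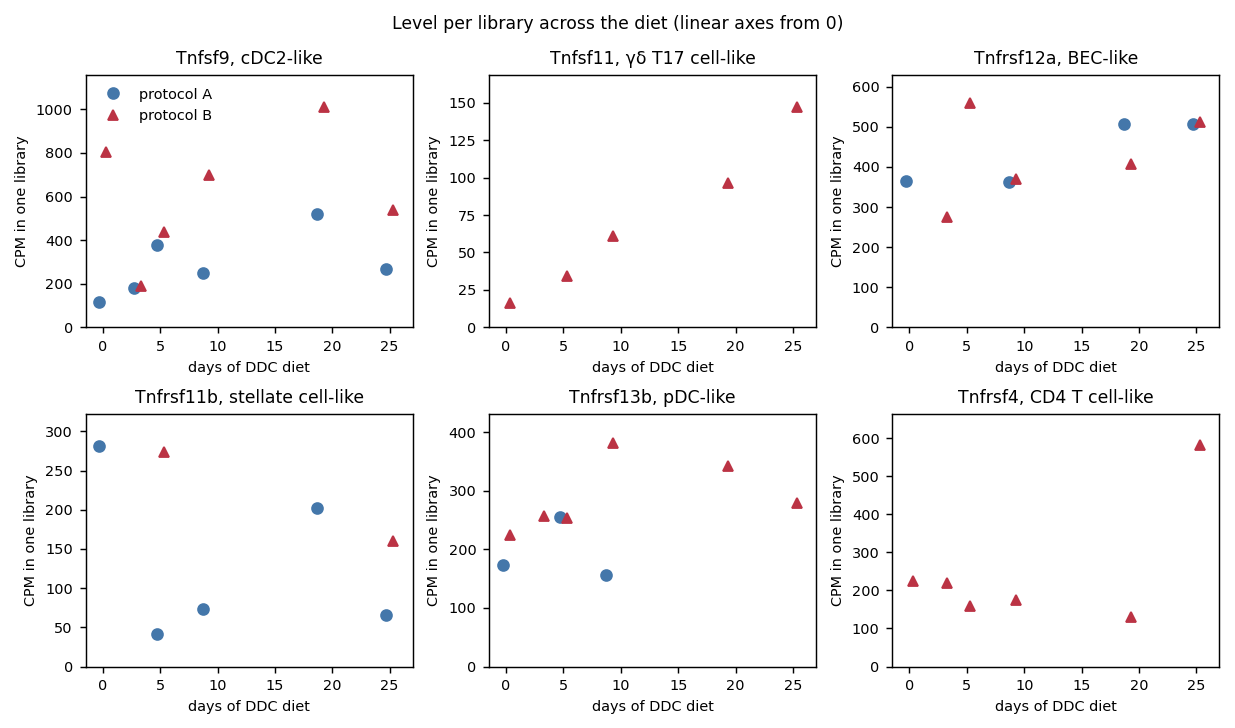
Level in CPM (linear axes from 0) against days of DDC diet for 6 members in the type with one of their highest levels; each point is 1 library, circles protocol A and triangles protocol B. Tnfsf11 in γδ T17-like cells runs from 16.2 at D0 to 147 at D25, whereas Tnfsf9 in cDC2-like cells spans 115 to 804 already at D0.

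Tnfsf11 in γδ T17-like cells had 16.2 CPM at D0, 34.5 at D5, 60.7 at D9, 96.7 at D19 and 147 at D25, all of protocol B, from 1, 5, 22, 27 and 52 UMIs in 23, 36, 62, 76 and 81 cells. The values were in the order of the diet days, with 1 library per day and very few UMIs at D0 and D5, and the type was not tested, since it had 1 onset library and 2 were required for a fit. In the STOP library the value was 148 CPM, next to D25. CD4 T-like cells did not share this order, with Tnfsf11 at 37.7 CPM at D0, 22.6 at D3, 42.1 at D5, 57.0 at D9, 36.6 at D19 and 84.3 at D25. Tnfrsf11b in stellate-like cells was scattered, with 281 CPM in D0 A, 41.4 in D5 A, 273 in D5 B, 73.6 in D9 A, 202 in D19 A, 66.0 in D25 A and 160 in D25 B.

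To ask which members differed between DDC-fed and control liver, the mean of onset and progression was set against D0 within each type by edgeR on UMI sums per library. Of 197 pairs of a member and a cell type that passed the filter on low counts, in 16 types, 8 (4.06%) were called at an adjusted p below 0.05, against 2.37% of all 151497 pairs of a gene and a type. DESeq2 called 6 pairs of members, and 3.44% of all pairs. These shares were not compared by a test. By edgeR there were 2 pairs higher under DDC, against 0.999% of all pairs, and 6 lower, against 1.37%, and 42 pairs (21.3%) had an unadjusted p below 0.05, against 17.4% of all pairs. The 8 pairs comprised 6 genes and 5 cell types, and 6 members (Tnfsf12, Tnfsf13, Tnfsf18, Tnfrsf8, Tnfrsf17 and Tnfrsf22) were too low to be tested in any type.

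**Figure D3:**
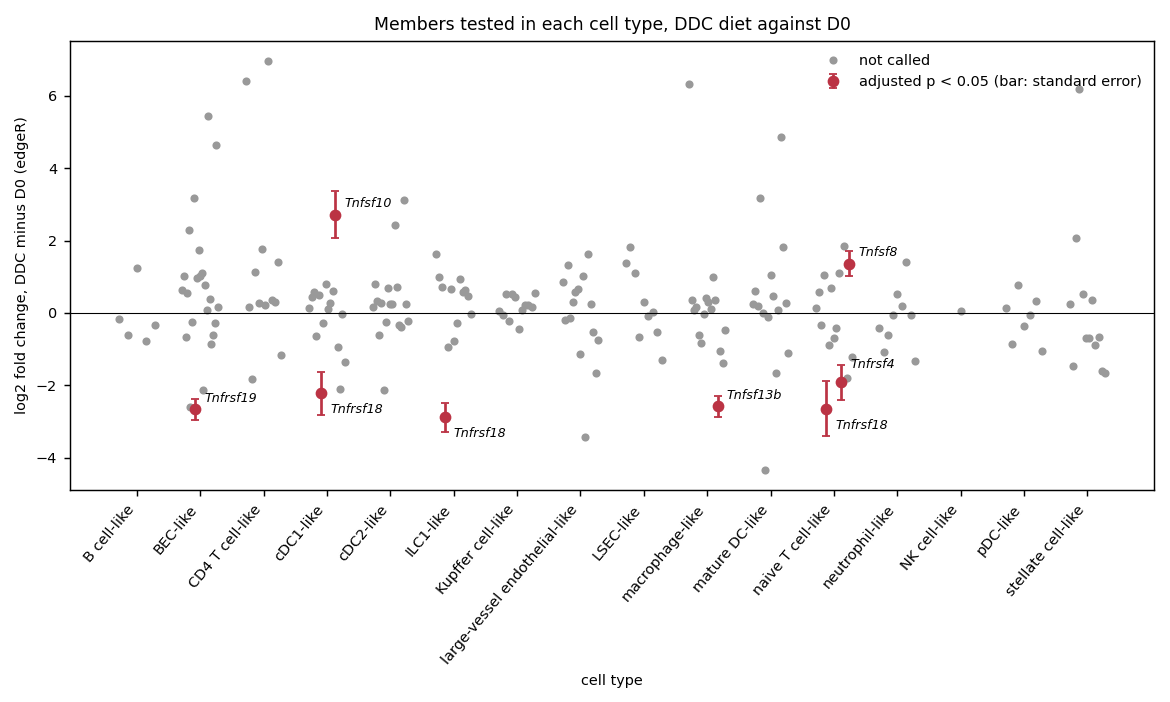
The log2 fold change of each tested member, DDC minus D0, by cell type; red points with standard errors are the 8 called pairs, grey points the others. The 7 grey points above 4 belong to members with no UMI at D0, whose fold change depends on the prior count and is no measure of size.

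Tnfsf13b fell in macrophage-like cells. It had 40.8 CPM in D0 A and 21.1 in D0 B (36 UMIs in 152 cells and 33 in 305), and between 2.57 and 6.59, with a median of 5.04, in the 10 DDC libraries. The groups did not overlap, in either protocol. The log2 fold change was -2.58 (SE 0.29), a 5.98-fold lower level, with an adjusted p of 0.000543 by edgeR, and 1 of 16 tested members was called in this type against 4.19% of all genes there. Permutation of the library labels within protocol gave p = 0.0278 (exact, two-sided, the smallest that 36 arrangements allow). The DDC level was close to that of barcodes with at most 100 UMIs, where Tnfsf13b lay between 0 and 5.55 CPM. The macrophage-like cells were not the same mixture in both groups: a cluster led by Ccl8, H2-M2 and Ccl12, which also held Cd207, made up 43.8% of them at D0 and 0.414% under DDC, and had 39.9 and 60.2 CPM of Tnfsf13b in the D0 libraries. Within the largest cluster of both groups, led by Gpnmb and Trem2, the D0 values were 11.1 and 13.3 CPM and the DDC values 2.77 to 8.93, still without overlap, but from 14 UMIs at D0. This split was chosen after the values were seen.

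The promoter of Tnfsf13b is shown because this gene gave the only call that every alternative kept. RefSeq windows (GRCm38.p6, 250 bases before to 50 after a start site) were found for 24 members, and were searched on both strands for an NF-κB consensus, a pair of GAAA repeats with any 2 bases between them (an interferon-response type element), TGANTCA (an AP-1 type element) and TATAAA. Of 32851 windows of all genes, 4.51%, 3.44%, 7.81% and 13.6% held them. RefSeq gives Tnfsf13b overlapping windows at different starts. The one whose start site is the GENCODE gene start, chr8:10006217-10006516, held TGANTCA and no GAAA pair. The other, printed here because it holds both, at chr8:10006383-10006682 on the plus strand, has the GAAA pair and TGANTCA in capitals:
Tnfsf13b: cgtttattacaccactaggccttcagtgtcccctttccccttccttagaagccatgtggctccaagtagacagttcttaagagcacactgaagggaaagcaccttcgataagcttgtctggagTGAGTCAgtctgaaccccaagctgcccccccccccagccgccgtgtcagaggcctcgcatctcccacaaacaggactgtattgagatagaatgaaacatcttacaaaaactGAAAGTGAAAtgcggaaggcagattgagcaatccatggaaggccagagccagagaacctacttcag

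Tnfrsf18 was called lower under DDC in ILC1-like, cDC1-like and naive T-like cells. D0 B was also its highest library in γδ T17-like (64.7 CPM), NK-like (57.4), CD4 T-like (37.7), mature DC-like (13.5), B cell-like (7.9) and pDC-like cells (6.93). The first 3 of these values came from 23, 99 and 20 cells and very few UMIs, as 1 UMI in γδ T17-like cells of D0 B is 16.2 CPM. In cDC2-like cells D25 A was higher (8.65 against 5.66 in D0 B). D0 A had 13.8 CPM in NK-like cells and 0 in B cell-like and pDC-like cells. The part of this library in the calls was not tested. In ILC1-like cells D0 B had 83.3 CPM (64 UMIs in 338 cells), and the 6 DDC libraries had between 7.88 and 49.7, with a median of 12.4. The groups did not overlap, but there was 1 D0 library. The log2 fold change was -2.88 (SE 0.40, adjusted p 0.0111 by edgeR), and 1 of 13 tested members was called against 6.01% of all genes. Of the D0 cells, 95.7% were in the cluster made up of D0 B, which had 3 of 7 detected ILC1 markers and 5 of 9 NK markers. The other ILC1 clusters had 5 and 4 of 7 ILC1 markers and also 5 of 9 NK markers each. The summed ILC1 markers were at 3410 CPM in D0 and 1660 to 1950 under DDC. Other lymphocyte lists also stood apart from D0 in these cells. The summed NKT markers were at 2880 CPM in D0 and 685 to 1750 under DDC, the CD8 T markers at 28100 and 12700 to 17700, and the γδ T17 markers at 112 and 8.82 to 106, with 3 of 6, 2 of 6 and 2 of 9 genes at a higher mean under DDC. The CD8 T list also holds Ccl5, Nkg7 and Eomes, of which Eomes is on the NK list too. Which of its genes made up the sum was not tested. The regulatory T markers were higher under DDC, at 113 CPM in D0 and 329 to 777. γδ T17-like cells of D0 B had Tnfrsf18 at 64.7 CPM. The part of these markers in the result was not tested. With 1 D0 library, the exact permutation test could not go below p = 0.167, the value it gave.

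In cDC1-like cells Tnfrsf18 was sparse, with no UMI in 27 cells of D0 A, 5.46 CPM in D0 B and 0.255 to 3.79 under DDC. The groups overlapped, all values were within the 0 to 9.26 CPM of barcodes with at most 100 UMIs, and the log2 fold change of -2.22 (SE 0.60, adjusted p 0.0407 by edgeR) had opposite signs in the 2 protocols, as the DDC libraries were above D0 in 4 of 4 of protocol A and below it in 5 of 5 of protocol B. Without D0 B the fold change was 5.51 on the log2 scale, and the exact permutation p was 0.9. The call therefore rested on 1 library.

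Tnfsf10 was called higher under DDC in cDC1-like cells, at a level not above background. D0 A had no UMI (27 cells) and D0 B 0.857 CPM (8 UMIs in 1152 cells), whereas the 9 DDC libraries had between 3.06 and 26.6, with a median of 8.37, so that the groups did not overlap. Barcodes with at most 100 UMIs held Tnfsf10 at 7.87 to 83.1 CPM, with a median of 23.7, so that the level under DDC was within or below that range. The log2 fold change was 2.72 (SE 0.66, adjusted p 0.0231 by edgeR), and with Tnfrsf18 this made 2 of 16 tested members called in cDC1-like cells against 5.53% of all genes. The exact permutation test gave p = 0.0333, the smallest that 30 arrangements allow. Large-vessel endothelial markers, from a type with high Tnfsf10, moved with it: 9 of 11 had a higher mean under DDC, 1 was at 0, and their sum was 32.0 to 59.1 CPM in D0 and 79.0 to 305 under DDC. Lymphatic endothelial markers did likewise, with 5 of 6 higher in mean and a sum of 5.78 to 13.9 CPM in D0 and 27.3 to 98.7 under DDC. LSEC markers, from another type with high Tnfsf10, overlapped, with a sum of 1230 to 1250 CPM in D0 and 615 to 2130 under DDC, and 9 of 10 had a higher mean under DDC. CD4 T markers summed to 22.2 to 52.2 CPM in D0 and 72.3 to 379 under DDC (4 of 6 higher in mean). Naive T markers summed to 52.2 to 59.0 and 72.5 to 197 (5 of 7), whereas plasma cell markers fell from 160 to 185 to between 64.5 and 147 (2 of 7). The part of these markers in the result was not tested. Cells with other-lineage markers made up 5.56% to 11.1% of cDC1-like cells in D0 and 10.1% to 33.8% under DDC. Without them Tnfsf10 was at 0 and 0.116 CPM in D0 and between 0 and 9.72, with a median of 0.898, under DDC, and was too low to be tested. Most of the signal came from 1 of 3 cDC1-like clusters, which had 19.3 CPM in D0 B and 31.5 to 57.1 under DDC and made up 2.21% of the type at D0 and 12.8% under DDC.

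Tnfrsf19 was lower in BEC-like cells. D0 A had 102 CPM (1056 UMIs in 786 cells), and the 8 DDC libraries had 7.97 to 25.1, with the highest values at D3 B (25.1) and D5 B (21.4) and all later ones between 7.97 and 14.8. The log2 fold change was -2.67 (SE 0.30, adjusted p 0.0146 by edgeR), a 6.38-fold lower level, and 1 of 23 tested members was called against 1.36% of all genes. No DDC library overlapped with D0, but D0 B held 2 BEC-like cells, and the exact permutation test could not go below p = 0.25, the value it gave. D0 and DDC cells were mostly in different clusters, with 76.5% of D0 cells in a cluster led by Ces1d, Ddit4l and Slc5a1 that held 7.49% of DDC cells. Within this cluster the level was 114 CPM in D0 A and 12.3 to 60.2 under DDC, with a median of 21.0, and in the cluster led by Cxcl5 and Wfdc18 it was 81.1 against 13.5 to 27.6. Without cells carrying other-lineage markers D0 A had 106 CPM and DDC 8.81 to 31.5. Summed fibroblast markers were at 44.1 CPM in D0 and 12.2 to 37.1 under DDC (7 of 10 genes higher in mean). Hepatocyte markers were at 6330 and 1370 to 2940 (2 of 10), whereas stellate markers rose from 378 to 513 to 1390 (3 of 10). The part of these markers in the result was not tested. Leaving out D25 A ended the call, while the log2 fold change was between -2.77 and -2.51 with any single DDC library left out.

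In all, 3 members were called in naive T-like cells, against 11.7% of all genes and out of 15 tested. Protocol A had 20 such cells in D0 and no DDC library with enough, so that the contrast rested on D0 B against 5 libraries of protocol B. Tnfsf8 was higher, with 21.2 CPM in D0 B and 61.3, 48.5, 108, 87.1 and 68.7 at D3, D5, D9, D19 and D25, and the fitted difference was 1.36 on the log2 scale (SE 0.34, adjusted p of 0.0302 by edgeR). D0 A had 82.1 CPM, from 6 UMIs, so that D0 and DDC overlapped. Tnfrsf4 was lower, with 19.7 CPM in D0 B and 3.91 to 8.49 under DDC (log2 fold change -1.92, SE 0.48, adjusted p 0.031 by edgeR), and so was Tnfrsf18, with 12.6 CPM against 0.652 to 4.07 (log2 fold change -2.65, SE 0.76, adjusted p 0.0445 by edgeR). Neither gene had a UMI in D0 A, and barcodes with at most 100 UMIs held Tnfrsf4 at 0.603 to 55.2 CPM. Summed mature DC markers, which share Ccr7 with the naive T list, were at 1090 to 1240 CPM in D0 and 502 to 897 under DDC (6 of 8 higher in mean). Mature DC-like cells of D0 B had Tnfrsf4 at 203 CPM. Classical monocyte markers were at 68.4 to 337 and 626 to 913 (8 of 8), and NK markers at 13.7 to 71.6 and 89.3 to 170 (8 of 9). The part of these markers in the calls was not tested. Since 91.6% of the D0 cells were in the cluster made up of D0 B, the diet and the library cannot be told apart here, and the exact permutation p was 0.167 for each of the 3, the smallest the design allows.

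**Figure D4:**
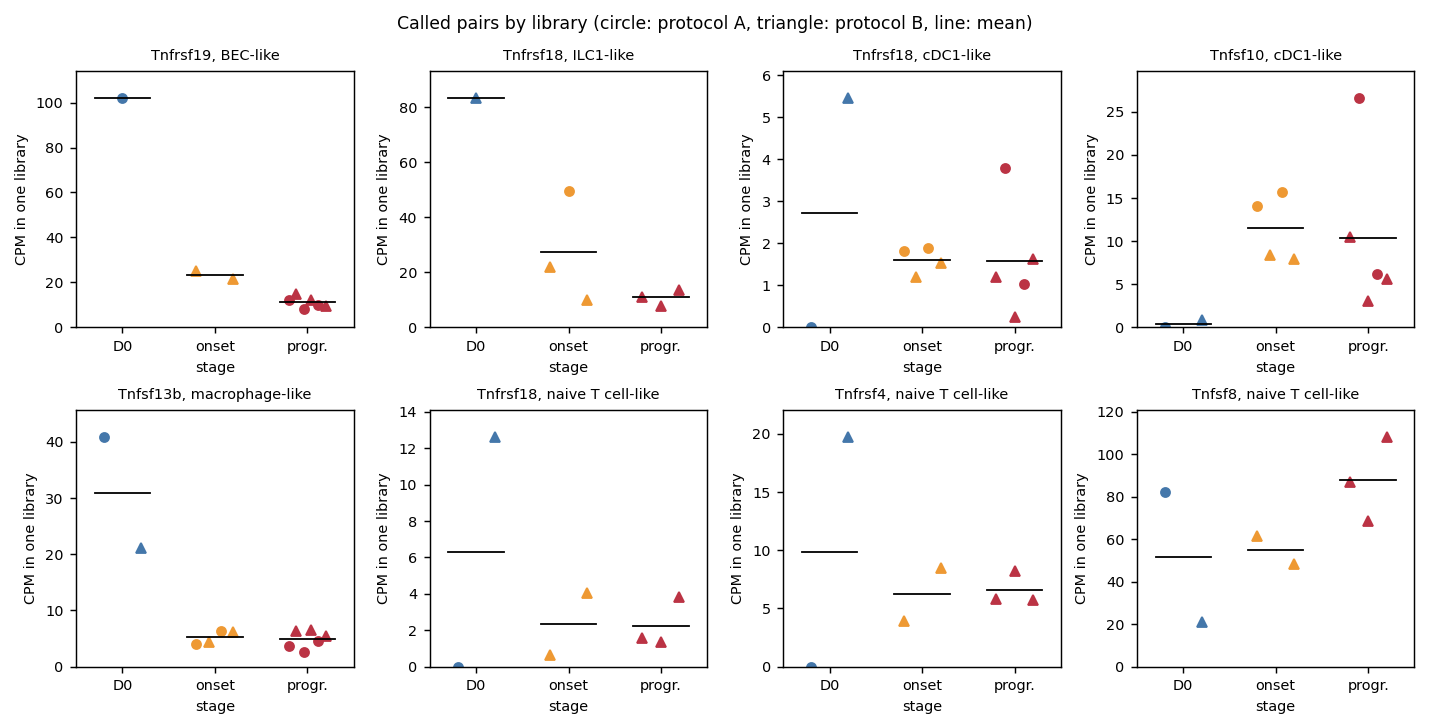
CPM in each library for the 8 called pairs at steady state (D0), onset (D3, D5) and progression (D9, D19, D25); circles are protocol A, triangles protocol B, lines the mean of a stage, and each axis starts at 0. D0 stands clear of all DDC libraries for Tnfrsf19 in BEC-like, Tnfrsf18 in ILC1-like, Tnfsf13b in macrophage-like and Tnfsf10 in cDC1-like cells, and overlaps with them in the other 4 panels.

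Tnfrsf4 and Tnfrsf18, which encode OX40 and GITR, are neighbours, 9.55 kb apart on the plus strand of chromosome 4, and are shown because both were lower in naive T-like cells. Their RefSeq windows at chr4:156013445-156013744 and chr4:156026072-156026371 held none of the 4 motifs, which says only that these letters are not in these windows:
Tnfrsf4: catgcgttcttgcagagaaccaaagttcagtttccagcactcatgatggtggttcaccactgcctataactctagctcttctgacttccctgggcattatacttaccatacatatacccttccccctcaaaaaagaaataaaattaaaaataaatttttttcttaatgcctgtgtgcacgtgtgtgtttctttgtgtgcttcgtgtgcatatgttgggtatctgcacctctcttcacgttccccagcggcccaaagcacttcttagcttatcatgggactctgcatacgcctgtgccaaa
Tnfrsf18: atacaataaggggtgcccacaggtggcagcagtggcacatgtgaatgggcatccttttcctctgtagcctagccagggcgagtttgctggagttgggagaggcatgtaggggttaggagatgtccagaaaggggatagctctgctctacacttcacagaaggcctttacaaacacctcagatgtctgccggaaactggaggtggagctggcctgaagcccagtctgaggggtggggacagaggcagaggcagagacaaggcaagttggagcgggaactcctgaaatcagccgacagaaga

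Some members missed the threshold although most or all DDC libraries lay to one side of D0. Tnfrsf1b in BEC-like cells had 4.83 CPM in D0 A and 10.7 to 31.2 in 8 DDC libraries (log2 fold change 1.75, SE 0.44, adjusted p 0.0786 by edgeR), and Tnfrsf1a had 54.6 against 74.8 to 115 (0.97, SE 0.30, adjusted p 0.12). In the same BEC-like cells the summed patrolling monocyte markers were at 193 CPM in D0 and 237 to 471 under DDC, with 7 of 8 genes at a higher mean. The summed macrophage markers were at 9700 CPM in D0 and 4090 to 9600 under DDC, although 8 of 9 genes had a higher mean under DDC. Monocyte-like cells had Tnfrsf1b at a mean of 201 CPM and Tnfrsf1a at 187, and the part of these markers in the result was not tested. Barcodes with at most 100 UMIs held Tnfrsf1b at 24.2 to 66.2 CPM and Tnfrsf1a at 77.8 to 239. The BEC-like values of these genes were within or below those ranges. Tnfsf9 in cDC1-like cells had 34.8 and 43.6 CPM in D0 and a median of 15.3 (0 to 47.3) under DDC, with overlap (-1.36, SE 0.40, adjusted p 0.0545). Tnfsf14 in neutrophil-like cells had 74.1 and 90.6 CPM in D0 and 8.42 to 57.1 under DDC, without overlap of the groups (-1.32, SE 0.49, adjusted p 0.246), and a cluster that held 5.8% of neutrophil-like cells at D0 held 53.3% under DDC. Of Tnfrsf18 in mature DC-like cells, D0 B had 13.5 CPM and DDC 0 to 3.46 (adjusted p 0.0743).

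Between onset and progression, to ask whether members changed as the disease went on, none of the 197 pairs was called by edgeR, against 0.0482% of all genes. An unadjusted p below 0.05 was seen for 22 pairs (11.2%), against 6.98% of all pairs. DESeq2 called 2, where it called 0.341% of all pairs, and edgeR without a filter on low counts called 3, where it called 0.879%. The lowest unadjusted p was that of Tnfrsf26 in Kupffer-like cells, with a mean of 16.6 CPM at onset and 38.3 in progression (log2 fold change 1.08, SE 0.29, adjusted p 0.143 by edgeR). D0 A and D0 B had 22.3 and 40.8 CPM, within the 22.0 to 65.5 of the progression libraries. Barcodes with at most 100 UMIs held Tnfrsf26 at 6.48 to 58.4 CPM, a range that includes all Kupffer-like atlas libraries but D19 B. Tnfrsf19 in BEC-like cells had 23.2 CPM at onset and 11.1 in progression (-1.00, SE 0.23, adjusted p 0.788).

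Other genes of the pathway were read from 4 lists, which were family ligands and receptors with other symbols, TRAF and death domain adaptors, and NF-κB subunits with their feedback genes. Counts of called genes are to be read against the shares of all genes given above, 4.19% in macrophage-like, 6.01% in ILC1-like, 5.53% in cDC1-like, 11.7% in naive T-like and 1.36% in BEC-like cells, and with so few genes a list they do not set any list apart. In macrophage-like cells Cd40, a costimulatory receptor, fell from 29.5 and 60.7 CPM to between 7.83 and 20.4 (log2 fold change -1.74, SE 0.33, adjusted p 0.0119 by edgeR), and the lymphotoxin β receptor Ltbr rose from 19.2 and 40.8 to between 40.9 and 65.1 (0.95, SE 0.20, adjusted p 0.0214). These were 2 of 4 tested receptors, and of 14 tested adaptors Birc2 fell. None of the 13 NF-κB genes was called there. Median log2 changes were 0.28 for ligands, -0.55 for receptors and -0.53 each for adaptors and NF-κB genes, against 0.05 for all genes. In ILC1-like cells Tnf fell from 93.7 CPM to between 6.21 and 39.1 (adjusted p 0.0143), 1 of 4 tested ligands, while the adaptor Birc3 and the NF-κB genes Cyld and Nfkb2 rose, 1 of 13 and 2 of 12. In cDC1-like cells Tnf, 1 of 2 tested ligands, fell from 10.4 and 26.9 CPM to a median of 6.51 (adjusted p 0.0117), and no adaptor or NF-κB gene of 13 each was called. In naive T-like cells Casp8 rose (1 of 13 adaptors), and Nfkbia and Nfkbib fell (2 of 13), with the limit of D0 B given above. In BEC-like cells none of 7 ligands, 5 receptors, 14 adaptors and 13 NF-κB genes was called, and their median log2 changes were 1.56, 0.55, 0.12 and 0.09, against 0.04 for all genes.

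The STOP library was set against D19 protocol B to ask which members differed after recovery from the diet. With 1 library each there was no test, and intervals are exact Poisson 95% intervals that cover counting error only. Of 161 pairs with at least 20 UMIs in either library, in 17 types, 21 differed at least 2-fold with separate intervals, against 9.81% of all 126918 pairs. By type these were 3 of 15 members in cDC2-like cells against 11.9% of all genes, and 3 of 16 in cDC1-like cells against 10.5%. In CD8 T-like cells they were 3 of 11 against 8.03%, in macrophage-like cells 2 of 12 against 7.25%, and in ILC1-like cells 0 of 15 against 6.04%. These shares were not compared by a test and do not set the members apart. Of the 21, 18 met the rule again with at least 3000 UMIs per cell and 10 without cells carrying other-lineage markers. Of the 11 others in the latter case, 5 had too few UMIs, 4 had overlapping intervals and 2 differed less than 2-fold.

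**Figure D5:**
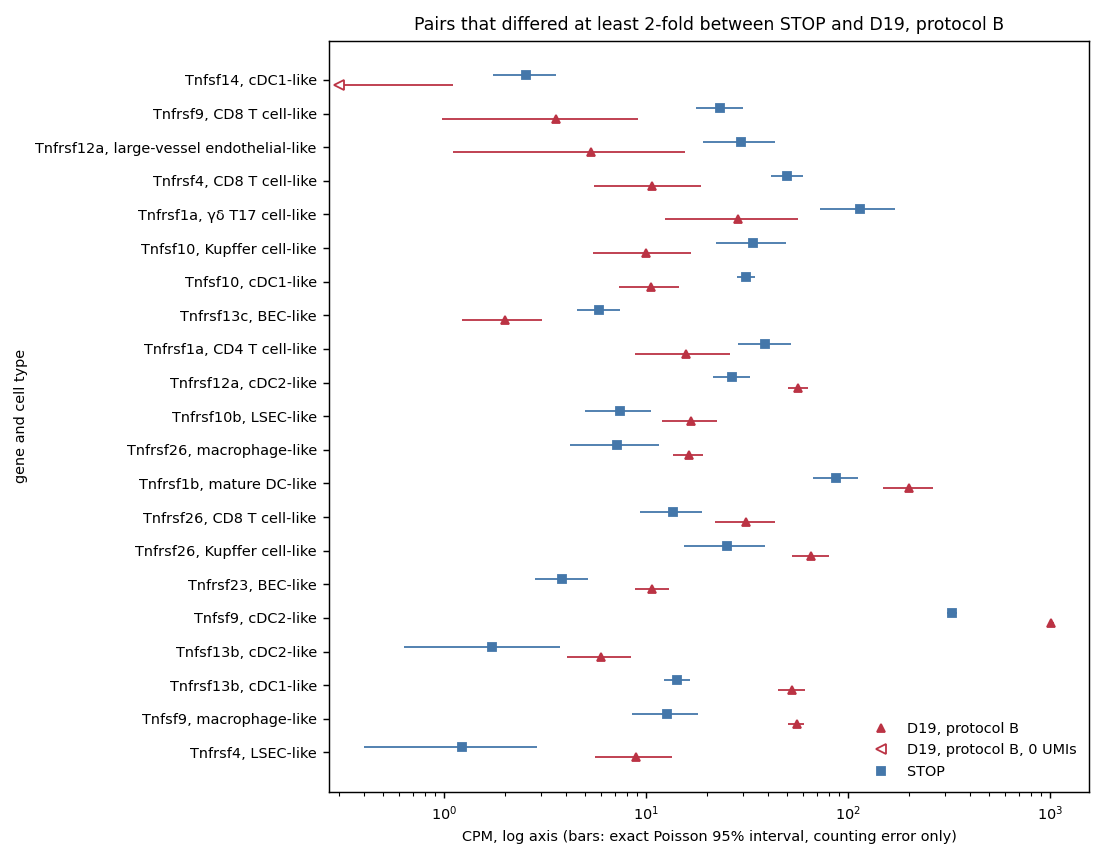
CPM (log axis) in STOP (squares) and in D19 protocol B (triangles) for the 21 pairs, with exact Poisson 95% intervals, ordered by their ratio with the highest STOP values relative to D19 on top; the open symbol at the left edge stands for 0 UMIs. Tnfsf9 in cDC2-like cells is at 328 against 1010 CPM and Tnfrsf4 in CD8 T-like cells at 49.8 against 10.7.

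Pairs that were lower in STOP included ligands and receptors of dendritic and macrophage-like cells. Tnfsf9 in cDC2-like cells had 328 CPM (309 to 347) in STOP and 1010 (988 to 1040) in D19 B, and in macrophage-like cells 12.7 (8.54 to 18.1) against 55.5 (50.6 to 60.7). The STOP value in cDC2-like cells was within the range of the 12 atlas libraries, but among the 6 libraries of protocol B it was above D3 B (188) alone. Tnfrsf13b in cDC1-like cells had 14.2 CPM (12.2 to 16.4) against 52.6 (45.1 to 61.0), and Tnfsf13b in cDC2-like cells 1.72 (0.632 to 3.75) against 5.95 (4.07 to 8.41). Of these 4, Tnfsf13b did not meet the rule without cells carrying other-lineage markers. Barcodes with at most 100 UMIs of the atlas libraries held Tnfsf9 at 9.05 to 226 CPM and Tnfrsf13b at 5.5 to 53.7. The macrophage-like Tnfsf9 values and the cDC1-like Tnfrsf13b values were within those ranges. Tnfrsf12a in BEC-like cells had 213 CPM (205 to 222) against 408 (396 to 421), a ratio of 0.523 just short of 2-fold, and STOP was below all 9 atlas libraries with BEC-like cells.

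Members that were higher in STOP included costimulatory receptors of CD8 T-like cells. Tnfrsf4 had 49.8 CPM (41.3 to 59.4) against 10.7 (5.53 to 18.7), and Tnfrsf9 23.3 (17.6 to 30.1) against 3.57 (0.972 to 9.14), from 4 UMIs. Barcodes with at most 100 UMIs of the atlas libraries held Tnfrsf4 at 0.603 to 55.2 CPM, a range that includes both of its values. They held Tnfrsf9 at 0 to 5.55 CPM, below its STOP value. A CD8 T-like cluster led by Coch, Gzmk, Pdcd1 and Havcr2 consisted of STOP cells by 89.7%, so that the mixture of CD8 T-like cells differed as well. Tnfsf10 in cDC1-like cells had 31.2 CPM (28.2 to 34.4) against 10.5 (7.33 to 14.6), a ratio of 2.96 that was 1.81 without cells carrying other-lineage markers, and in Kupffer-like cells 33.7 (22.2 to 49.0) against 9.97 (5.45 to 16.7), where without cells carrying such markers 0 UMIs and 1 were left. With all cells, the Tnfsf10 values of both types were within the 7.87 to 83.1 CPM of barcodes with at most 100 UMIs in the atlas libraries. Tnfsf14 in cDC1-like cells had 33 UMIs against 0, at least 2.81-fold higher with a floor of 3 UMIs in D19 B, and 5 UMIs were left without cells carrying other-lineage markers.

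The other pairs concerned receptors. Tnfrsf1a was higher in STOP in γδ T17-like cells, with 114 CPM (72.2 to 171) against 28.6 (12.4 to 56.4), and in CD4 T-like cells, with 38.9 (28.3 to 52.2) against 15.7 (8.78 to 25.9). Tnfrsf12a was higher in large-vessel endothelial-like cells, with 29.5 CPM against 5.32 from 3 UMIs, and lower in cDC2-like cells, with 26.7 against 56.4. Among BEC-like cells Tnfrsf13c was 2.93-fold higher and Tnfrsf23 2.79-fold lower in STOP. Tnfrsf26 was lower in CD8 T-like, Kupffer-like and macrophage-like cells, by 2.25-fold to 2.62-fold, and Tnfrsf1b in mature DC-like cells by 2.29-fold. In LSEC-like cells Tnfrsf10b was 2.24-fold lower, and Tnfrsf4 was 7.21-fold lower from 5 UMIs against 22. Without cells carrying other-lineage markers, both pairs of Tnfrsf1a, and those of Tnfrsf26 in CD8 T-like, Tnfrsf1b in mature DC-like and Tnfrsf10b in LSEC-like cells met the rule again, and the remaining pairs of this paragraph did not. With at least 3000 UMIs per cell, the pairs of Tnfrsf1a and that of Tnfrsf26 in CD8 T-like cells did not meet the rule. Barcodes with at most 100 UMIs of the atlas libraries held Tnfrsf1a at 77.8 to 239 CPM and Tnfrsf12a at 12.5 to 128. The values of these genes in this paragraph were within or below those ranges. Tnfrsf1b in mature DC-like cells (87.3 and 200) was above its range of 24.2 to 66.2.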

How the data were processed

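Single-cell RNA-seq libraries of mouse liver (10x Genomics 3.1 chemistry) were analysed from the raw UMI counts per gene and barcode that the authors deposited. The processing notes name kallisto and GRCm38, and the version of kallisto was not given in the sources used here. Members and lists were chosen with earlier results of these data known. Barcodes with at least 1500 UMIs were clustered (2000 variable genes, 40 principal components, 25 neighbours, Leiden at resolution 1.5, T and NK cells again at 1, igraph 0.11.9), giving 58 and 25 clusters, and a name needed 3 detected markers. Naming rules were revised after clusters were seen, and doublets were not removed but cells with at least 3 UMIs of another lineage's markers were left out in an alternative.

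UMI sums per library and type (at least 20 cells) were tested in edgeR 4.0.16 (R 4.3.3) with TMM, filterByExpr, the quasi-likelihood test, terms for stage and protocol, and Benjamini-Hochberg adjustment over all genes of a type at 0.05. A type was fitted where at least 1 D0, 2 onset and 2 progression libraries had that many cells, as 16 types did. The others were not tested. DESeq2 1.42.0 was an alternative. Exact two-sided permutation tests used log2(CPM + 1) within protocol. The steps were tested on simulated data. Named were every member with 100 UMIs or more by its highest types, every pair called, pairs that differed at least 2-fold between STOP and D19 B with separate intervals and 20 UMIs, and up to 2 called genes each way per list. Members just short of a threshold and values within clusters were chosen after their values were seen. Gene positions are from GENCODE on GRCm38, and promoters from RefSeq, GRCm38.p6. Poisson intervals (scipy 1.17.1) cover counting error only.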

Additional observations from a re-analysis of the deposited data

Results flagged for a closer look

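In 30 groups of 4 to 10 libraries, 2 held a library far from the others, where chance gives about 1 in 20. Tnfsf15 in mature DC-like cells had 30.2 CPM in D3 A, and the next of 9 libraries had 9.54. Tnfrsf19 in BEC-like cells had 102 CPM in D0 A, the only D0 library of this type, and the next of 9 libraries had 25.1.

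Tnfrsf18 in cDC1-like cells moved in opposite directions in the protocols. The mean under DDC was 2.13 CPM against 0 in D0 in protocol A, and 1.16 against 5.46 in protocol B. This difference was not tested, and D0 A held 27 such cells.

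Cells in clusters without a name, which entered no comparison, held Tnfrsf12a at a median of 16.1 CPM under DDC (9.46 to 32.0) against 6.51 and 9.22 in D0. This gene was named because it was the only member with every DDC library above D0. Barcodes with at most 100 UMIs held it at 12.5 to 128 CPM, with a median of 62.7. All of these values were within or below that range. Unnamed cells were 38.3% of D0 A and 8.5% of D0 B, and what they were was not tested.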

How the results depend on the processing

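The 8 calls between DDC and D0 became 23 without a filter on low counts (3.13% of all pairs were called there), where all 8 were kept, 4 without a protocol term and 4 with adjustment over all types together, and 1 to 11 when single libraries were left out. The latter counts cover only the 8 to 15 types refitted without that library, not all 16, and are not like for like with the 8. Shares of all pairs called are given only for DESeq2 and for the fit without a filter, over all types together. The other counts, and those of single types below, cannot be set against all genes and show only how stable the calls were. For BEC-like cells the count of 1 became 2 by DESeq2, 4 without a filter and 2 without a protocol term, and 0 to 1 with a library left out, 0 without D25 A. For ILC1-like cells it became 0 with at least 3000 UMIs per cell, and 0 to 1 with a library left out. For cDC1-like cells the count of 2 became 4 without a filter, 0 without a protocol term, 0 without cells carrying markers of another lineage, 1 with joint adjustment, and 0 to 4 with a library left out. For naive T-like cells the count of 3 became 0 by DESeq2, 5 without a filter, 0 without a protocol term, 0 at 3000 UMIs, 0 with joint adjustment and 0 to 5 with a library left out. For macrophage-like cells it was 1 to 2, and Tnfsf13b kept its call in all 19 alternatives, at -2.99 to -2.05. The 0 calls between progression and onset became 2 by DESeq2, 3 without a filter, and 0 to 4 with a library left out. On the log2 scale Tnfrsf18 in cDC1-like cells was at -2.70 to 5.51 with a library left out, and Tnfrsf4 in naive T-like cells at -2.29 to 6.81, each turning without D0 B, and the latter was at 0.27 with 3000 UMIs. The cause was not tested. The leading type was the same for 19 of 29 members by the share of cells after thinning and for 24 of 29 at 3000 UMIs, and for 24 without cells carrying other-lineage markers. Between STOP and D19 B 19 to 21 pairs differed, but only 10 of the 21 were among the pairs found without cells carrying other-lineage markers. No paired analysis was possible because replicate 1 and 2 of a day are protocols A and B, which are already a term of the fit.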

Other observations

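Tnf, the founding ligand of the family, was also called lower under DDC in types where no member was called. In pDC-like cells it had 39.4 and 179 CPM in D0 and 3.48 to 26.3 in 7 DDC libraries (log2 fold change -3.73, SE 0.54, adjusted p 0.00895 by edgeR). In mature DC-like cells it had 147 CPM in the single D0 library and 21.6 to 102 in 8 DDC libraries (-1.96, SE 0.39, adjusted p 0.0216). Lta, a lymphotoxin subunit, had 20.2 CPM against 0 to 12.1 in the same cells (-4.62, SE 1.0, adjusted p 0.0364). The adaptor Traf1 fell in pDC-like cells from 80.0 and 103 to between 37.0 and 60.9 CPM (-1.26, SE 0.27, adjusted p 0.0498). In pDC-like cells 1 of 2 tested ligands and 1 of 13 adaptors were called, against 73 of 9065 genes. In mature DC-like cells 2 of 4 tested ligands were called, against 75 of 8524 genes. Tnf, Lta and Traf1 were named after their values were seen.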
